A study of Homo sapiens with 32 samples.

Results

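The summits of the zinc finger protein ZNF143, taken from chromosomes 1 to 22 and X, were ranked by the protein-coding gene at which they lay. A summit is the position of highest signal within a called peak of a chromatin immunoprecipitation sequencing (ChIP-seq) experiment. The list held 16600 summits, of which 16165 lay on these chromosomes, out of 288104 summits in the 4 lists of the series (ZNF143, SP1, NRF1 and YY1). Each of the 19970 protein-coding genes of GENCODE 44 was given the highest score of any ZNF143 summit within 500 bp of the 5′ end of its gene record. The score is a significance on the −log10 scale (of p or of q, which is not stated), so that a larger number is a peak that stands further above its local background. Such a score was found at 6323 genes, and these are called ranked genes here.

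The cells were HEK293T, an established human embryonic kidney line, in a single clone, HEK_CloneZD29. Every sample of the study, controls included, came from this clone, whose ZNF143 protein carries a degron tag. The tag bears an HA epitope, through which ZNF143 was precipitated, and lets the small molecule dTAGV-1 send the fused protein for degradation. SP1, NRF1 and YY1 each had 4 untreated samples and 4 dTAG-treated samples (50 nM, 30 minutes), and 1 list each. The labels name the SP1 list for its untreated and treated samples, but name no list for NRF1 or YY1. Those lists were matched by the antibody they are named for. ZNF143 had 2 untreated samples and 2 samples given 50 nM dTAGV-1 for 30 minutes. The labels tie 1 ZNF143 list to all 4 of its samples, so it holds no value per sample. No treatment can be compared, and no test over samples exists. Read depth is unknown from the list, and both the scores and the number of summits grow with it. A gene without a summit is a gene without a called peak in this list, and was not shown to be free of ZNF143. The list carries no expression values, so the cell line was not checked against marker genes.

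ZNF143 is a DNA-binding activator with a row of zinc fingers, first known as the activator of the selenocysteine tRNA gene and of genes for small nuclear RNAs. It binds near the start sites of many genes that most cells use. Its usual site has a core, searched here as CCCA followed by any 2 bases, AT, any base and C. An upstream element, ACTACA, lies before the core. HCFC1 is a co-regulator that the protein THAP11 recruits, and ZNF76 is the close relative of ZNF143. SP1, NRF1 and YY1 are activators or bifunctional factors that bind other sequences at many promoters.

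The following 30-base sites lay within 50 bp of the best summit of the gene named. They are written 5′ to 3′ on the strand of the site (hg38), with ACTACA and the core in capitals. They were drawn from high-ranking sites with both elements on the same strand and at the same spacing. Both elements, at any spacing and on either strand, were found in 14.2% of the top 10% of ranked genes.
RANBP10 (chr16:67806745-67806774, minus): gttatACTACAtctCCCAGAATTCtctacc
NDC1 (chr1:53838558-53838587, minus): tcgagACTACAgttCCCAGCATGCagcgcc
MRPL24 (chr1:156741180-156741209, minus): ggcggACTACAactCCCAGCATGCtgagag
DCAKD (chr17:45061234-45061263, plus): gaaaaACTACAaaaCCCAGAATGCagcgca
UBR2 (chr6:42563872-42563901, plus): aatggACTACAactCCCACAATGCattcga
CNIH4 (chr1:224356731-224356760, plus): aatgaACTACAattCCCAGCATGCgtcaga
BUB3 (chr10:123154088-123154117, plus): agaaaACTACAtttCCCAGAATGCcatacg
In each of the 7, by this choice, the core began 9 bases after the start of ACTACA, leaving 3 bases between the elements. This spacing held at 109 of the 135 distinct best summits that had both elements within 50 bp. The other 26 had the elements on different strands, in the other order or at another distance.

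The upstream element was also found at some zinc finger genes named ZNF on chromosome 19, where 43 of the 138 with a summit had it. These 6 are among the highest-scoring ZNF genes of that chromosome whose best summit had ACTACA within 50 bp.
ZNF554 (chr19:2819817-2819846, minus): gcgaACTACAagtcccagcaggccccgcag
ZNF749 (chr19:57435224-57435253, plus): gagaACTACAttacccagaagacactgcgg
ZNF235 (chr19:44305096-44305125, plus): ctggACTACAgttCCCAGAATGCtccaagg
ZNF527 (chr19:37370993-37371022, minus): ttgaACTACAtctcccagagaaccccgcgg
ZNF230 (chr19:44002827-44002856, minus): atggACTACAgttCCCAGAATTCactcgtc
ZNF227 (chr19:44207438-44207467, minus): cctgACTACActtCCCAGAATGCcccaggg
In ZNF235, ZNF230 and ZNF227 the element was followed by the core, and in ZNF554, ZNF749 and ZNF527 the letters after it departed from the core.

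Longer stretches, from 200 to 51 bp before the 5′ end and in the direction of transcription, show how the elements can be repeated. None of the 3 stretches overlapped an untranslated region in GENCODE 44, and capitals mark matches to either element on either strand.
FEM1A (chr19:4791534-4791683, plus): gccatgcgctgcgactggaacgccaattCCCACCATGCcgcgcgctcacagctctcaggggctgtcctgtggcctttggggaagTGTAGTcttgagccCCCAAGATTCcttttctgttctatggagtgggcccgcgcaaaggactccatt
NDC1 (chr1:53838514-53838663, minus): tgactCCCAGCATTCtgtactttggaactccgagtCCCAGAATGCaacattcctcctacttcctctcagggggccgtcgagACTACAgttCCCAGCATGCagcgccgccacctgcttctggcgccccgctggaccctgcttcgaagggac
ZNF226 (chr19:44164873-44165022, plus): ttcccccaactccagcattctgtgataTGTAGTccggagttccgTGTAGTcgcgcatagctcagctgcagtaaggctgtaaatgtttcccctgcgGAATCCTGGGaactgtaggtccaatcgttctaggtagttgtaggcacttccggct
FEM1A had its best summit 143 bp upstream (score 56725) and NDC1 142 bp upstream (score 30790). ZNF226, the highest-scoring ZNF gene of chromosome 19, had its best summit 96 bp upstream (score 13353). TGTAGT is ACTACA read on the other strand.

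Of all protein-coding genes, 31.7% (95% Wilson interval 31.02 to 32.31%, counting error only) had a ZNF143 summit within 500 bp. The 6323 ranked genes used 5384 distinct best summits, since 1814 genes shared theirs with a neighbour. Most ranked genes (5480) had 1 summit in the window, and 843 had 2 or 3. Of all 16165 summits, 10021 lay in no such window.

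The scores fell into a low and a high group with few genes between them. The median was 23.6, the first and last quartiles were 7.64 and 706, and the highest score was 65042. There were 2071 genes (32.8%) between 2 and 10 and 2144 (33.9%) between 10 and 100. Only 611 (9.66%) lay between 100 and 1000, while 1134 (17.9%) lay between 1000 and 10000 and 363 (5.74%) above. A score of at least 100, a line chosen after the scores had been seen, was reached by 2108 genes, which is 10.6% of all protein-coding genes. The top 10% of ranked genes, 632 genes at 515 summits, began at a score of 5993.

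**Figure D1:**
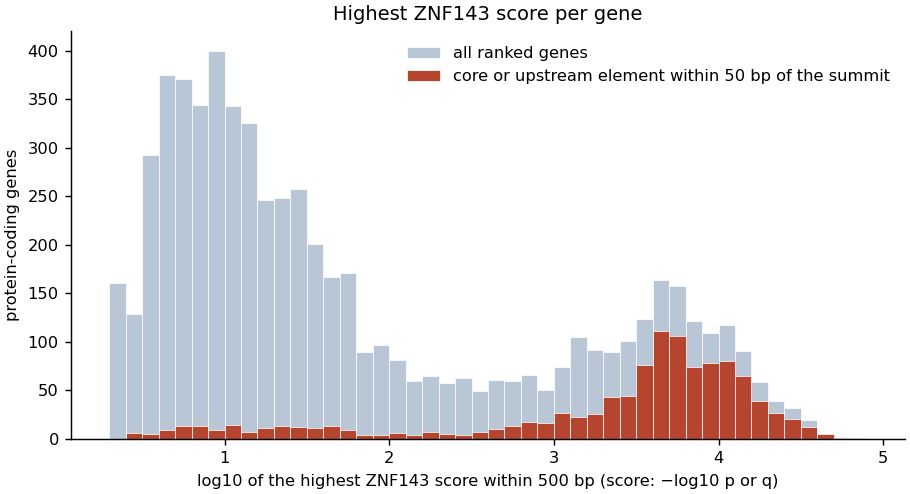
Number of protein-coding genes (vertical axis) by the log10 of the highest ZNF143 score within 500 bp of the 5′ end (horizontal axis), for all 6323 ranked genes (grey) and for the 1097 whose best summit had the core or ACTACA within 50 bp (red). Counts are high below a score of 100 and rise again above 1000, where most of the genes with either element lie.

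The summit with the highest score of any gene lay 366 bp inside USP5, a deubiquitinase that takes free ubiquitin chains apart, with a score of 65042. FEM1A, a substrate receptor of cullin ubiquitin ligases, came next with 56725, at 143 bp upstream. IFRD2, a protein that binds idle ribosomes, scored 51047 at 400 bp inside the gene record. BOD1, which acts in chromosome alignment at mitosis, scored 49308 at 91 bp upstream. CALCOCO1, an autophagy receptor, scored 44352 at 135 bp inside. From the canonical transcript starts, the summits of IFRD2 and CALCOCO1 lay at -89 and -158 bp (upstream).

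HDGF, a chromatin-binding growth factor, scored 43834, at 420 bp upstream of its record and inside the gene PRCC. That summit lay at -15670 bp (upstream) from the start of the canonical HDGF transcript, near which the gene's score was 733. FBXL19, an F-box protein that binds unmethylated CpG DNA, scored 42229, and AP2S1, a subunit of the clathrin adaptor AP-2, scored 41637. A single summit of 38279 served the divergent neighbours RANBP10 and TSNAXIP1, at 178 and 27 bp upstream of them. VCPIP1, a deubiquitinase, and the read-through gene C8orf44-SGK3 shared a summit of 37572. CLPB, a mitochondrial disaggregase, scored 36829. UNK, an RNA-binding zinc finger protein, scored 36586 with its summit in the overlapping histone gene H3-3B. FBXW11, another F-box protein, scored 35874.

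The rest of the 25 highest summits scored between 31440 and 35744. They lay at LYSMD1, at PEMT (which makes phosphatidylcholine), CDK5 (a neuronal kinase), CRTC2 (a CREB coactivator), SMPD3 (a sphingomyelinase), GSPT1 (a translation release factor), ST3GAL2 (a sialyltransferase), TMEM11, TLE4 (a corepressor) and IFTAP. They also included the shared summits of NPRL2, CYB561D2 and ENSG00000272104 and of NUDCD1 and ENY2. NPRL2 belongs to the GATOR1 complex, which restrains mTORC1, and ENY2 to the SAGA coactivator. The summit lay upstream of the 5′ end of the gene record in 21 of the 30 genes at the 25 summits. From canonical transcript starts it was also upstream for IFRD2, CALCOCO1, CLPB, FBXW11, TLE4 and IFTAP. ACTACA lay within 50 bp of 16 of the 25 summits and the core within 50 bp of 6, and 8 had neither. Within 100 bp, 24 of them had an SP1 summit, 22 a YY1 summit and 20 an NRF1 summit. The 31 bases centred on each of the 25 summits occur once in the assembly.

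The 10 highest-scoring genes with both elements within 50 bp of the best summit were FEM1A, BOD1, RANBP10, TSNAXIP1, ST3GAL2, NUDCD1, ENY2, NDC1, MRPL24 and ELOC. NDC1 anchors the nuclear pore in its membrane (score 30790), MRPL24 is a mitochondrial ribosomal protein (27292) and ELOC is an adaptor of cullin ubiquitin ligases (21804). Of the 100 highest summits, 11 had another of the 100 within 100000 bp, and no share for other summits was computed beside this.

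Both elements were concentrated among high scores. The core lay within 50 bp of the best summit at 483 of 6323 ranked genes (7.64%), ACTACA at 769 (12.2%) and both at 155 (2.45%). Windows of the same length, 50 bp to either side of the 5′ ends of all protein-coding genes, held the core in 1.77%, ACTACA in 2.95% and both in 0.265%, on either strand. In the top 10% of ranked genes the core was at 23.1% of best summits (20.0 to 26.5%) and ACTACA at 59.5% (55.6 to 63.3%). In the second decile the shares were 21.2% and 44.6%. In decile 3, with scores from 208 to 1802, they were 15.0% and 6.80%, so that ACTACA fell away before the core did. From decile 6 down the core was at 2.53% or fewer and ACTACA at 1.58% or fewer of best summits. Genes with both elements had a median score of 7033 (n = 155), those with ACTACA alone 5585 (n = 614), those with the core alone 1077 (n = 328) and those with neither 15.5 (n = 5226).

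**Figure D2:**
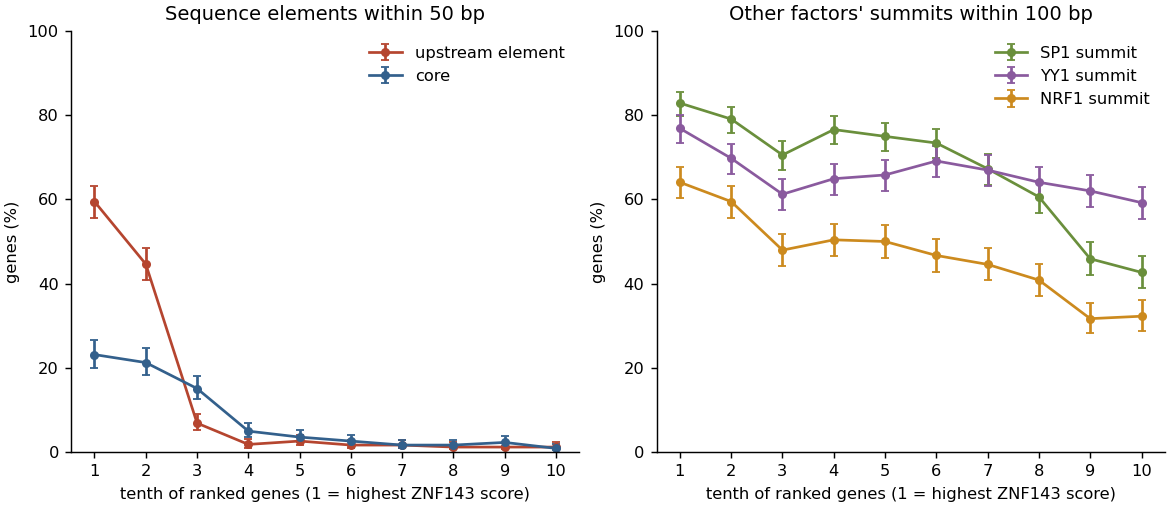
Share of ranked genes (vertical axes, %) by decile of ZNF143 score (horizontal axes, 1 is the highest), with Wilson 95% intervals as bars. Left, ACTACA (upstream element) or the core within 50 bp of the best summit, which fall from 59.5% and 23.1% in decile 1 to near 1% in decile 10; right, an SP1, YY1 or NRF1 summit within 100 bp of it, which fall from 82.9%, 76.9% and 64.1% to 42.7%, 59.2% and 32.2%.

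The bases after ACTACA were uneven at high scores. At 609 copies in deciles 1 and 2, counted from the first A of ACTACA as position 1, C was at position 10 in 93.3%, at position 11 in 97.2% and at position 12 in 96.2%. A followed at position 13 in 74.2%, T preceded at position 9 in 82.6%, and C was at position 19 in 85.7%. The 56 copies at best summits of deciles 4 to 10 had C at positions 10, 11 and 12 in 41.1%, 50.0% and 42.9%. The composite ACTACANNNCCCA lay within 50 bp at 41.9% of the top 10%, 31.2% of decile 2, 2.85% of decile 3 and 0.751% of the windows at all 5′ ends. With 1 mismatch allowed, ACTACA reached 87.8% of the top 10% and 34.3% of all 5′ ends, and the core 70.7% and 22.8%. A match is a run of letters and not a shown contact, and 31.6% of the top 10% matched neither element exactly.

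High-scoring summits lay upstream of the 5′ end. The summit was upstream in 78.0% of the top 10%, with a median of 62 bp, and in 73.3% of decile 2. In decile 10 it was upstream in 40.6%, and the median lay 70 bp inside the gene. Measured from the canonical transcript, 92.7% of the top 10% had the summit upstream. Best summits outside every protein-coding gene record made up 60.6% of the top 10% and 29.1% of decile 10. Those in an exon made up 3.16% and 35.4%. Where the core was present, it pointed in the direction of transcription in 265 of 457 genes with a single orientation (58.0%).

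**Figure D3:**
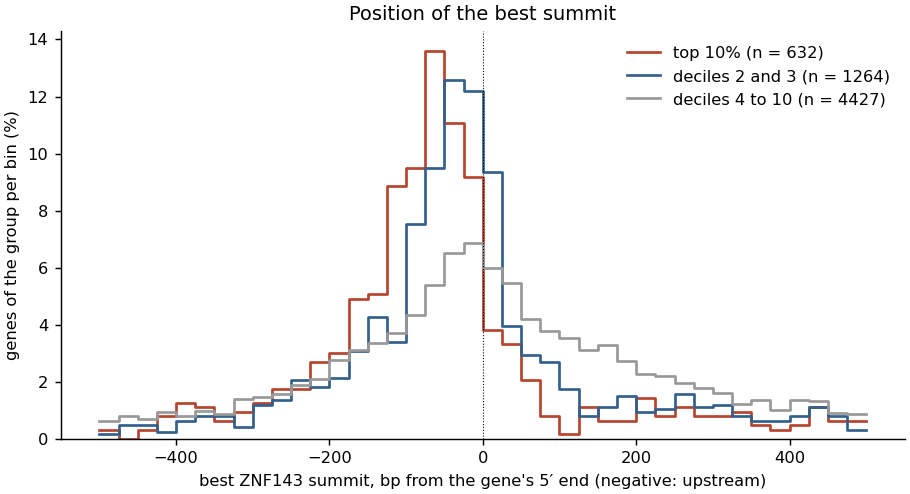
Share of genes per 25-bp bin (vertical axis, %) by the distance of the best summit from the 5′ end (horizontal axis, bp, negative upstream), for the top 10% of ranked genes, deciles 2 and 3, and deciles 4 to 10. The top 10% peaks between 75 and 50 bp upstream, and deciles 4 to 10 are spread more widely on both sides.

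Divergent gene pairs were more common at ranked genes than at genes without a ZNF143 summit. A gene starting in the opposite direction within 1000 bp upstream, here a head-to-head partner, was found for 8.56% of all protein-coding genes, 18.4% of ranked genes and 26.1% of the top 10%. It was found for 3.99% of genes without a ZNF143 summit. Partners can share a best summit, as RANBP10 and TSNAXIP1 do, and 223 of the top 10% shared theirs.

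Summits of the other factors lay near best ZNF143 summits at 67.4% (SP1), 46.8% (NRF1) and 66% (YY1) of ranked genes, within 100 bp. In the top 10% these shares were 82.9%, 64.1% and 76.9%. In decile 10 they were 42.7%, 32.2% and 59.2%. Decile 3 stood below decile 2 for each of them, at 70.6%, 47.9% and 61.2%, against 79.1%, 59.5% and 69.8%, and decile 4 stood higher again, at 76.6%, 50.4% and 64.9%. The 3 lists differ in length, so shares were set between deciles and not between factors.

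Genes were then described by 73 function lists. A list's share with a summit is read against the 31.7% of all protein-coding genes, its members in the top 10% of ranked genes against 3.16%, those in the top 25% against 7.91%, and the median score of its ranked members against 23.6. In 44 lists the share was at least 1.5 times that of all genes, in 20 it was lower by at least 1.5 times, and 9 lay between. The lists held 4149 of all 19970 protein-coding genes. They held 172 of the 632 genes in the top 10%, and 460 belonged to none of them. Some leading members share their best summit with another gene. Examples are INTS9 with HMBOX1, MICOS13 with HSD11B1L, FEN1 with FADS2 and ZNF605 with CHFR.

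Genes that make and run ribosomes were often marked. Of 79 cytosolic ribosomal protein genes, 66 had a summit, 26 lay in the top 25% and 9 in the top 10%, with a median of 80.9. RPLP2 scored 12875 and RPL23A 11211, and 13 members had none, among them RPL4, RPL10, RPL22, RPL30 and RPL36. With canonical 5′ ends, the share of this list with a summit rose from 83.5% to 92.4%. Ribosome biogenesis factors of the nucleolus had a summit at 56 of 75, with 3 in the top 10% and a median of 15.9. DDX49, an RNA helicase, scored 14502 at a summit shared with the vesicle coat gene COPE, and the assembly factors NOP14 and NOP16 scored 13733 and 12258. Translation initiation factors and their kinases had 32 of 44, led by the stress kinase EIF2AK3 (11645) and EIF2B4 (10621). Of 20 cytosolic aminoacyl-tRNA synthetases, 12 had a summit. Among those LARS1, which charges leucine tRNA, scored 21734 and CARS1 2743.

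RNA processing genes followed. The spliceosome core had 49 of 63 with a median of 53.3, led by SF3B5 (9552) and the Sm protein SNRPD3 (8864). Genes for tRNA modification and processing had 48 of 65 and 8 in the top 10%. CTU1, which thiolates tRNA, scored 14929, the RNase P subunit RPP40 13724 and the deaminase ADAT3 11329. The RNA exosome had 9 of 12, without EXOSC3, EXOSC7 and EXOSC8. With canonical 5′ ends, 100% of the exosome list had a summit. SYMPK, the scaffold of mRNA 3′ end cleavage, scored 16079. Among general transcription factors and their associated factors, 36 of 51 had a summit. SNAPC3, a subunit of the complex that starts small nuclear RNA genes, led with 15974. Mediator, which links activators to RNA polymerase II, had 21 of 32, led by MED11 (13038) and CDK8 (11864). Integrator, which trims small nuclear RNAs, had 9 of 15, and INTS9 alone of them lay in the top 10% (22573).

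Genes of selenocysteine synthesis, the pathway of a small RNA gene long tied to ZNF143, had a summit at 7 of 8, all but SARS1. Their scores were moderate: SEPHS1 had 1080, SEPSECS 541 and TRNAU1AP 38.8. The proteins that carry selenocysteine had 12 of 25, with none in the top 25% and a highest score of 70.1 at SELENOH.

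Mitochondrial lists together held a summit at 229 of 305 memberships (75.1%). Mitochondrial ribosomal proteins had 65 of 83 and 7 in the top 10%, led by MRPL24 (27292), MRPS25 (10451) and MRPL50 (9959). Import and inner membrane genes had 39 of 50 and also 7 in the top 10%, led by the cristae organiser MICOS13 (25083) and the import oxidoreductase CHCHD4 (21645). Respiratory complexes II to V had 44 of 59. There UQCR10 of complex III scored 26923 and the ATP synthase subunits ATP5PO and ATP5F1D 14571 and 13724, while ATP5F1B, ATP5F1E and ATP5IF1 had none. Complex I had 32 of 46 but 1 in the top 10%, NDUFB10 (6720). GATB, which completes glutaminyl-tRNA in mitochondria, scored 20121 and the release factor MTRF1 12822. The tricarboxylic acid cycle had 13 of 19 and none in the top 25%, its highest being fumarase FH (528).

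Cell division genes were marked at intermediate shares. DNA replication had 36 of 51, with the helicase cofactor CDC45 (19389), the flap nuclease FEN1 (19070) and the ligase LIG1 (15535) in the lead and CDC7, GINS2 and GINS3 without a summit. Kinetochore genes had 30 of 48 with 5 in the top 10%. The checkpoint proteins BUB3, ZW10 and BUB1B scored 15679, 14718 and 8653, while BUB1 and CENPA had none. Cohesin and condensin had 13 of 24, led by the cohesin loader MAU2 (18161). Centrosome genes had 32 of 62 with a median of 311. CEP290 scored 23096 and CEP97 18102.

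Among protein turnover and transport genes, shares ran from RAB GTPases (33.3%) to nucleoporins (87.1%). Proteasome subunits had 32 of 48, led by PSMD11 (10688), and 13 lay in the top 25%. Among cullins and the COP9 signalosome, ELOC (21804), the ubiquitin-like NEDD8 (14369) and COPS7B (12227) led 13 of 24. Nucleoporins had 27 of 31, with 4 in the top 10%: after NDC1 came NUP205 (12244) and NUP153 (10135). CHMP4B, which forms membrane-cutting filaments, scored 30668 and VPS50 24261, in a list of 31 out of 51. RAB GTPases had 21 of 63, near the share of all genes, yet 5 of them lay in the top 10%, led by RAB29 (17122), RAB1A (12624) and RAB30 (11574). ATG4C, an autophagy protease, scored 21782, and IFT20 of ciliary transport 17316.

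Metabolic lists together had 6 of 175 memberships in the top 10% (3.43%), near the 3.16% of all genes. Cholesterol synthesis had 12 of 20 with a median of 10.3 and 1 in the top 10%, FDPS (13336), and HMGCS1 had none. Glycolysis had 5 of 17, the highest being GAPDH (34.5), PKM (26.9) and ALDOA (14.2). Peroxisome biogenesis had 9 of 16, with PEX26 at 20616 and PEX14 at 13365. Among histone acetyl- and methyltransferases, 35 of 57 had a summit and KMT2B scored 24600. CREBBP and EP300 had none.

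The remaining lists of general cell functions had these counts. RNA polymerase subunits had 23 of 33, led by POLR2E (6955), and mitochondrial aminoacyl-tRNA synthetases 13 of 17, among them RARS2 (2593). Genes that maintain mitochondrial DNA and RNA had 20 of 31, led by FASTKD1 (11311) and the mitochondrial RNA polymerase POLRMT (7097). The anaphase-promoting complex had 11 of 16, and CDC26 led it with 5976. Homologous recombination and Fanconi anaemia genes had 15 of 28, led by RAD51B (10630), with BRCA2, BARD1 and BLM without a summit. Chaperonin and prefoldin genes had 9 of 14, led by TCP1 (3635), and ubiquitin-conjugating and activating enzymes 24 of 40, led by UBE2V1 (9445). Purine and pyrimidine synthesis had 14 of 24, led by ADSS2 (11517), and N-glycosylation and GPI anchor genes 32 of 54, led by ALG14 (13018). Vesicle coats and tethers had 34 of 55, and the lysosomal proton pump 11 of 24, led by ATP6V0B (4193). Polycomb, INO80, SWI/SNF and NuRD subunits had 26 of 56, led by INO80E (10577) and SRCAP (6775).

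**Figure D4:**
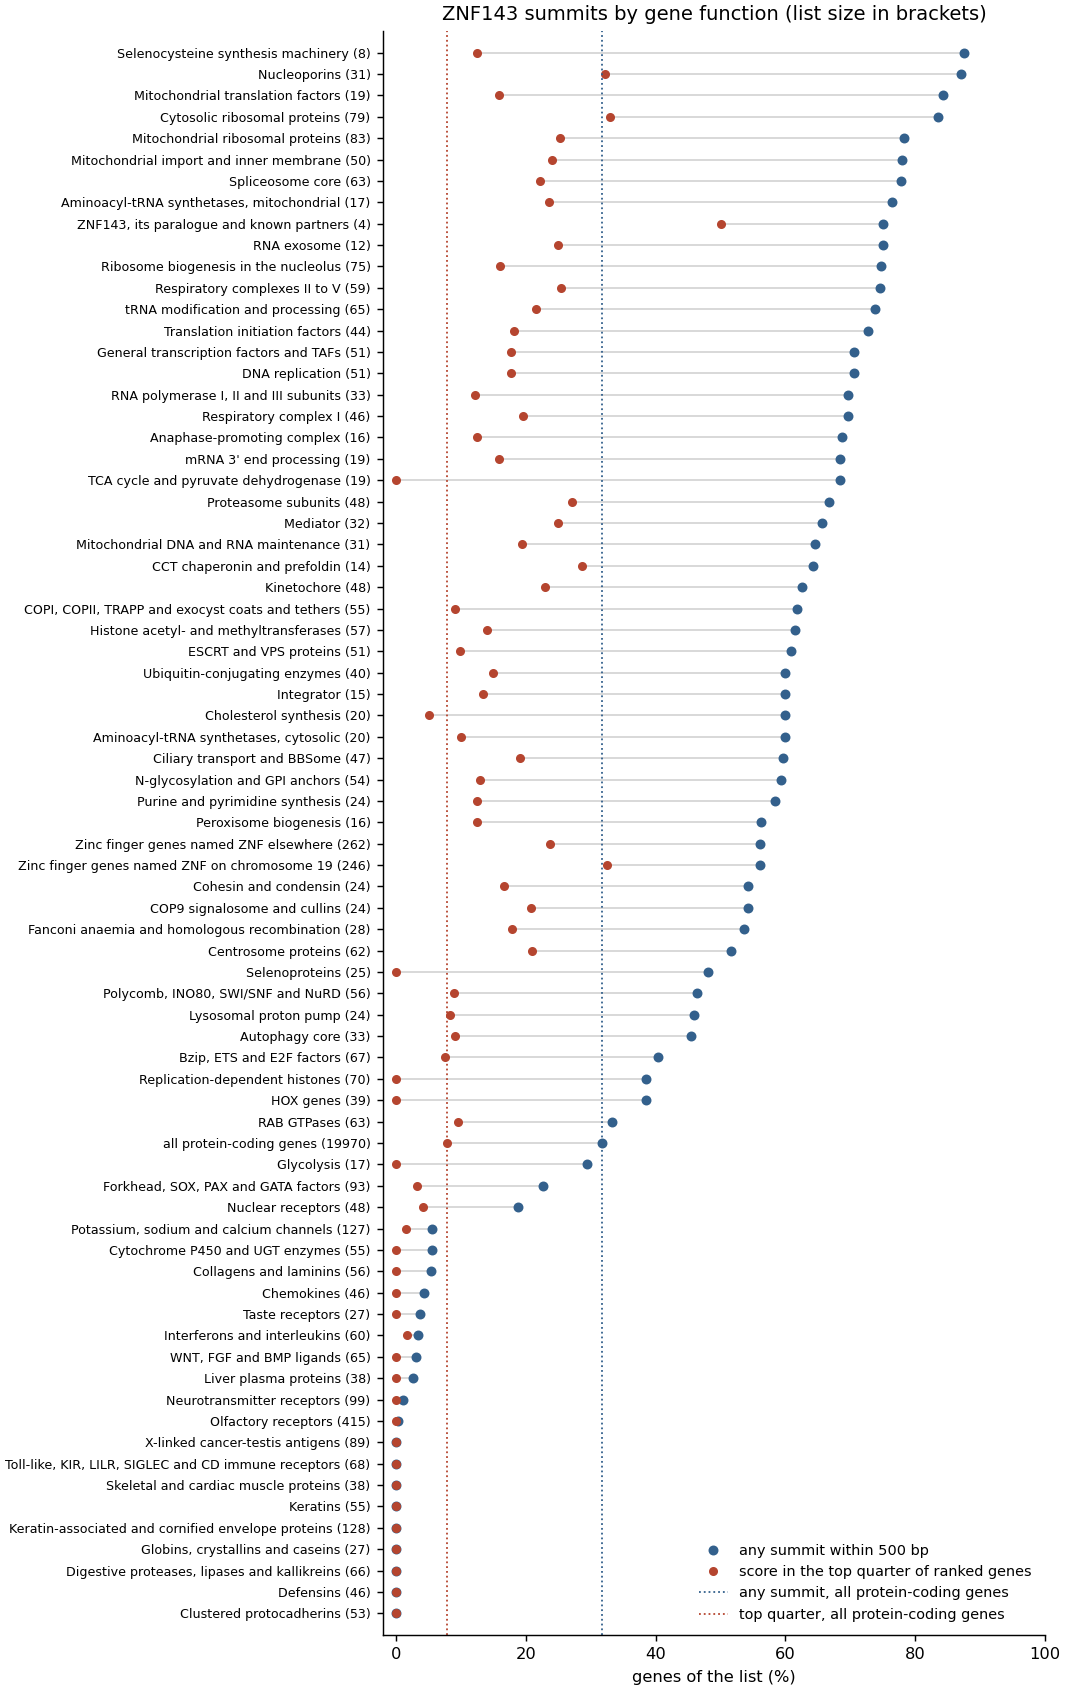
Share of the genes of each of 73 function lists (vertical axis, list size in brackets, with all protein-coding genes as 1 more line) that had a ZNF143 summit within 500 bp (blue) or a score in the top 25% of ranked genes (red), in % (horizontal axis); dotted lines give the same shares for all protein-coding genes, 31.7% and 7.91%. Selenocysteine synthesis and nucleoporins stand highest, tissue-restricted families lie near 0, and chromosome 19 ZNF genes have a top 25% share of 32.5%.

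Zinc finger genes named ZNF, most of which encode repressors with many fingers, took a larger share of the top 10% than of the genome. They numbered 508, which is 2.54% of all genes, and 57 of them made up 9.02% of the top 10%. On chromosome 19, where they lie in clusters, 138 of 246 had a summit, 80 lay in the top 25% and 30 in the top 10%. Their median score was 2430, with quartiles of 19.9 and 5418. ZNF226 (13353), ZNF181 (12126) and ZNF554 (11276) led. On other chromosomes 147 of 262 had a summit, with a median of 113 and 27 in the top 10%, led by ZNF140 (24804), ZNF605 (23083) and ZNF337 (16931). ACTACA lay within 50 bp at 43 of the 138 on chromosome 19 (31.2%) and at 23 of the 147 elsewhere (15.6%), beside 12.2% of all ranked genes. Many of these genes arose by duplication, so their promoters can share sequence and are not independent of each other. Chromosome 19 had the highest share of genes with a summit (38.9%) and 102 of the top 10%, and chromosome X the lowest share (18.7%).

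Other transcription factor families and the histones had these counts. HOX genes had 15 of 39, none above 14.3 (HOXA11). Replication-dependent histones had 27 of 70, none above 45.8 (H2BC6). Their best summits lay at a median of 109 bp inside the gene. Without summits whose 31 bases occur more than once in the assembly, 24.3% of these histones had one, against 38.6% with them. When only the top 50% of summits by score were kept, 2.56% of HOX genes and 5.71% of these histones had one, against 19.4% of all genes. Under the same setting cholesterol synthesis (20.0%) and selenoproteins were no longer at 1.5 times the share of all genes. Factors of the bZIP, ETS and E2F families had 27 of 67 with none in the top 10%, led by JUN (4392), CREB3 (4028) and GABPA (2542). Forkhead, SOX, PAX, GATA and T-box genes had 21 of 93. TBX6, a mesoderm regulator, scored 29155 and FOXO4 6033 there, against a median of 6.27. Nuclear receptors had 9 of 48, among them NR6A1 (7785) and the clock repressor NR1D1 (3331).

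Tissue-restricted families had almost no summits. In 17 such lists, 21 of 1440 memberships had one (1.46%). Among 415 olfactory receptors only OR1F1 did, with a score of 8.36. Without summits whose 31 bases occur more than once in the assembly, the share of olfactory receptors was 0%. There were none in 8 of the lists, with 517 genes: keratins, keratin-associated and cornified envelope proteins, defensins, immune receptors, digestive enzymes, globins with crystallins and caseins, cancer-testis antigens of chromosome X, and muscle proteins. Among ion channels 7 of 127 had a summit, among them KCNN3 (4262). Among interferons and interleukins 2 of 60 had one, IL5 (1956) and IL23A (685). With canonical 5′ ends, the share of this list was 0%. Collagens and laminins had 3 of 56, all laminins (LAMC1, LAMB2 and LAMA3). Among lists of development, clustered protocadherins had 0 of 53 and WNT, FGF and BMP ligands 2 of 65, GDF9 (6.95) and GDF5 (3.76). Neurotransmitter receptors had 1 of 99, CHRNB1 (3.76), chemokines 2 of 46, CXCL3 (11.6) and CXCL12 (7.64), taste receptors 1 of 27, TAS2R14 (450), and liver plasma proteins 1 of 38, the complement protein C5 (162). Taste receptors and liver plasma proteins had 0% with canonical 5′ ends, and liver plasma proteins also with windows of 250 bp. Cytochrome P450 and UGT enzymes had 3 of 55, led by CYP2S1 (8.36).

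Most genes without ZNF143 lacked the other factors too. Over all genes, SP1 was within 500 bp at 59.1%, NRF1 at 48.3% and YY1 at 57.8%. All 3 were there at 45.5% of all genes, and none of them at 37.4%. Of the 13647 genes without ZNF143, 7439 (54.5%) had none of the 3, and 3471 (25.4%) had all of them. Of the 6323 ranked genes, 35 (0.554%) had none and 5620 (88.9%) had all. Read the other way, 61.8% of the 9091 genes with SP1, NRF1 and YY1 also had ZNF143.

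Among genes with all 3 other factors, of which 61.8% had ZNF143, function lists still differed in how many had it. The counts were 27 of 28 nucleoporins, 58 of 63 cytosolic ribosomal proteins and 120 of 131 ZNF genes of chromosome 19. They were 18 of 36 RAB GTPases, 15 of 28 autophagy genes, 4 of 10 glycolysis genes, 5 of 22 ion channels and 2 of 20 WNT, FGF and BMP ligands. Autophagy genes (53.6%) and HOX genes (11 of 17) were near the share of all such genes. The factors' own scores can differ between these lists, and their part in the counts was not tested.

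The 15 genes without ZNF143 that stood highest in all 3 other lists included general housekeeping genes. CBX5, which encodes a heterochromatin protein, and HNRNPA1, a splicing regulator, share a divergent promoter with scores of 922 for SP1, 16209 for NRF1 and 1208 for YY1. Their nearest ZNF143 summit lay 65096 and 65156 bp away. DDX39A (an mRNA export helicase), NDUFS8 (complex I), CASP2 (a caspase), HOOK1 and ERMAP were likewise further than 1000 bp from any ZNF143 summit. The other 8 had one beyond 500 but within 1000 bp: CNOT1, SRSF2, DNAJB12, DUS3L, UNG, COMMD6, UCHL3 and NAA50. CNOT1, the scaffold of a deadenylase complex, had a summit of 9606 at 643 bp, and DUS3L, a tRNA enzyme, one of 12322 at 541 bp. DNAJB12, DUS3L, COMMD6 and UCHL3 gained a summit when the canonical transcript set the 5′ end.

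Copies of the core were found at promoters with and without ZNF143. Within 500 bp of the 5′ end, 14.1% of all genes had one. The share was 17.5% for ranked genes, 40.5% for the top 10% and 12.6% for genes without a summit. Of the 3471 genes with SP1, NRF1 and YY1 but no ZNF143, 328 (9.45%) had a copy.

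ZNF143 had a summit at its own gene, 450 bp inside the record, with a score of 4395, which is rank 855. THAP11 scored 9117 (rank 399, at 283 bp upstream) and HCFC1 38.5 (rank 2658, at 180 bp upstream). ZNF76 had none within 500 bp of its record, the nearest being 758 bp away with a score of 83.0. Measured from its canonical transcript, that summit lay at 68 bp. The same change gave ZNF143 a score of 6631 at its own promoter.

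The limit of 500 bp cuts through a thin but continuous spread of distances. Just inside lay RAP1GDS1 (500 bp, score 5.65), AKAP10 (499 bp, 1798) and TREX2 (499 bp, 2.11). Just outside, 1 or 2 bp past the limit, lay CAP1 (769), MATN2 (2.11) and the checkpoint kinase gene CHEK2 (7415). The nearest summit was 400 to 500 bp away at 318 genes, with a median score of 11.4, and beyond that but within 600 bp at 233, with a median of 15.0. With the canonical transcript as reference, 989 genes without a summit gained one and 357 ranked genes lost theirs.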

How the data were processed

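ChIP-seq of HEK293T cells was deposited as 4 lists of peak summits, with 1 ZNF143 list for untreated and treated samples alike. Per the submitters' processing notes, cutadapt, Bowtie2, SAMtools 1.16.1, MACS3 and bedtools were used, with the hg38 assembly. The authors' deposited score, in column 5, is on the −log10 scale. Whether it stands for p or q is not given in the sources used here, and the lowest value was 2.00.

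The files were read with Python 3.11.15, numpy 2.4.6 and pandas 2.3.3. Summits on chromosomes 1 to 22 and X were set against gene records of GENCODE 44. Deciles divide the 6323 ranked genes by score. Motifs were searched on both strands with 0 mismatches, wholly within 50 bp of the summit. Scripts were tested on simulated data. Genes are not replicates, so shares carry 95% Wilson intervals for counting error only, and no p-value is given.

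Named genes were the 25 highest summits, the 3 highest members of each list, up to 5 members absent from high lists or present in low lists, the 15 genes without ZNF143 highest in the other lists, those nearest 500 bp, the 4 partner genes and the 10 highest with both motifs. Members and function lists were chosen with earlier results of these data known. Alternatives changed distances, 5′ ends, score cutoffs, mismatches and the genes and summits kept. The mock samples were not used here, and a few genes the rule names are not reported here.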

Additional observations from a re-analysis of the deposited data

Results flagged for a closer look

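Data outside the ranking held 435 further ZNF143 summits on sequences other than chromosomes 1 to 22 and X. Of these, 28 were mitochondrial, with scores up to 50.2, and 380 lay on other contigs. The highest score among the 435 was 49892. No control list was used, and the origin of these summits was not tested.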

How the results depend on the processing

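No paired analysis was possible because the lists hold no value per sample, and no replicate could be left out for the same reason. The number of ranked genes was 3883 with the top 50% of summits by score, against 6323, and stayed within 1.5 times under the other alternatives. The share of genes without ZNF143 that had SP1, NRF1 and YY1, 25.4%, became 18.4% with windows of 250 bp, 29.2% with 1000 bp, 30.0% with canonical 5′ ends and 34.9% with the top 50%. The share of the top 10% with the summit upstream, 78.0%, became 82.3%, 74.3% and 92.7% under the first 3 of these. An SP1 summit near the top 10% (82.9%) became 87.3% with windows of 250 bp, 67.2% and 96.4% with partners within 50 and 250 bp, and 71.7% with equal list lengths. NRF1 (64.1%) became 39.6% and 86.1% with 50 and 250 bp and 59.7% with equal lengths, and YY1 (76.9%) 59.3% and 96.0% with 50 and 250 bp. The core in the top 10% (23.1%) became 70.7% with 1 mismatch, 12.7% within 25 bp and 30.2% within 100 bp, and ACTACA (59.5%) became 87.8%, 30.5% and 72.2%. The composite of ACTACA and CCCA, added after the data were seen, gave 41.9%. A ratio of 2 in place of 1.5 left 25 lists above all genes in place of 44. Glycolysis, HOX and histone lists crossed the share of all genes under 2 alternatives each and RAB GTPases under 1. Keeping the top 50% of summits moved the shares of 47 of the 73 lists, and canonical 5′ ends those of 13. HDGF went from 43834 to 733 and FBXL19 from 42229 to 35637 with canonical 5′ ends. Depth is unknown, so weak sites cannot be told from absent ones.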
